A study of Rattus norvegicus with 33 samples.

Results

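Glycolysis and glycogen metabolism were followed in rat soleus through 32 genes: the glucose transporter and lactate exporter of muscle, the enzymes from hexokinase to lactate dehydrogenase, the glycerol 3-phosphate dehydrogenases, and the enzymes that make and break glycogen. The 32 were chosen by name, as a list of enzymes and transporters, and all 32 were found among the 14506 genes that carried a single symbol on the array. The soleus came from female Wistar rats, 1 array per animal and 3 animals in each of 11 groups, 33 arrays in all. Values are log2 expression, so a difference of 1 is a doubling.

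Of these arrays, 15 belonged to a spinal cord experiment. SCI animals had a complete transection between the 9th and 10th thoracic vertebrae at 9 weeks of age and, 14 weeks later, surgery for stimulators together with tenotomy of the left gastrocnemius. The SCI-ES groups were stimulated from 16 weeks after transection, for 1 hour a day at 40 Hz and 1.5 volts (2 seconds on, 18 seconds of rest), for 1, 3 or 7 days. The SCI group had the same surgery and tenotomy with no stimulator implanted, and its tissue was taken 21 days later. Sham-SCI animals are labelled as having a laminectomy only and no gastrocnemius ablation, so transection and tenotomy cannot be told apart in any comparison with Sham-SCI. The other 18 arrays came from intact rats of 22 to 23 weeks of age with gastrocnemius ablation (GA), a cut of the distal insertion of the muscle that overloads the soleus, or the same surgery with no cut (Sham-GA), at 1, 3 and 7 days. The text that describes the design gives 1, 2 and 7 days of stimulation and ablation on both sides. The sample labels give 1, 3 and 7 days, the methods give the left hindlimb, and these are used here.

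Glycolysis splits glucose into pyruvate and yields ATP without oxygen. Muscle feeds it from blood glucose, taken up through GLUT4, and from its own glycogen, which phosphorylase breaks down once phosphorylase kinase has switched it on in response to calcium and to adrenaline. Fast-twitch fibers carry more of these enzymes than the slow-twitch fibers that make up most of a rat soleus, and several steps are shared by a muscle isoform (Pfkm, Pgam2, Eno3) and an isoform of wider distribution (Pfkl, Pfkp, Pgam1, Eno1). RNA was taken from whole muscle, where fewer cells of a type and less RNA per cell cannot be told apart.

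Members that lay apart between groups, and the pair of phosphoglycerate mutase isoforms, are shown first by their promoters: the 250 bases before the start of the gene, from RefSeq, on build GRCr8, read 5′ to 3′ on the strand of the gene. Capitals mark ACGTG and GCGTG, which hold the core of the hypoxia response element, and TATAAA, the TATA box, on either strand.
Gbe1 (chr11:22181026-22181275, plus strand): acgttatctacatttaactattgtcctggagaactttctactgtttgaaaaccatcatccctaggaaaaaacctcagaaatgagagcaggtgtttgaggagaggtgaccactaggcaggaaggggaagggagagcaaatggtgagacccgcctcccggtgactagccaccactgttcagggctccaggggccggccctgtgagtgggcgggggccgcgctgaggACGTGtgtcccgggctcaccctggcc
Pfkfb3 (chr17:71944683-71944932, plus strand): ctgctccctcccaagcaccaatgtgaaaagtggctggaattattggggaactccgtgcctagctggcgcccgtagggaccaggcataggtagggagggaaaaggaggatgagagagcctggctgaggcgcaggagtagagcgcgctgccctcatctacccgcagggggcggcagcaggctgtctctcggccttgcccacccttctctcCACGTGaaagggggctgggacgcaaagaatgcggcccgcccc
Ldhb (chr4:177177409-177177658, minus strand): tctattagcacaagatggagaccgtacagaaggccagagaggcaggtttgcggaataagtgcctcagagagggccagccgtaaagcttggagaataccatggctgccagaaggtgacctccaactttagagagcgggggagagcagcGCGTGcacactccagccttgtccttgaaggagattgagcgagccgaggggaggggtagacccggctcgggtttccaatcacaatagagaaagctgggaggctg
Pgam1 (chr1:250672902-250673151, plus strand): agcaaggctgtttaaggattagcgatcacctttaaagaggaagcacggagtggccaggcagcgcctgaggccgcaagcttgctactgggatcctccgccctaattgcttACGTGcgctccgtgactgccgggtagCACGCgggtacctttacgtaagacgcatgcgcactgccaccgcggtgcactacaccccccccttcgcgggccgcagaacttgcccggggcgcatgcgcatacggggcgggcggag
Pgam2 (chr14:84897875-84898124, minus strand): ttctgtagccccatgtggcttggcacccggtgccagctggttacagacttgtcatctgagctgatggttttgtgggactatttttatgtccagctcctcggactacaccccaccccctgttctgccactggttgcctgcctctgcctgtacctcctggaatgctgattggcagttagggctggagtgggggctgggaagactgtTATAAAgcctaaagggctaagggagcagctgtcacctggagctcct

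In Pfkfb3 the capitals spell CACGTG, a palindrome that is read as ACGTG on each strand, whereas Pgam2 held a TATA box and neither hypoxia core, and Pgam1 held both cores and no TATA box. RefSeq promoters matched 29 of the 32 members, 34 promoters in all. Searched on both strands, ACGTG stood in 32.4% of these 34 and in 16.6% of all 33469 promoters of the same length. GCGTG stood in 41.2% and 25.9%. CACGTG, which contains ACGTG, stood in 5.88% and 5.59%. Any E box (CANNTG, which contains CACGTG) stood in 50.0% and 65.5%, and TATAAA in 8.82% and 12.9%. These matches describe the letters only. Slc2a4, Pgk1 and Gpd1 had no promoter in the table used.

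Differences were fitted with limma over all arrays of an experiment, and calls needed at least 1.5 fold and a p under 0.05 after Benjamini-Hochberg adjustment over all genes tested. Groups are said not to overlap where each array of the first lay above, or each below, every array of the second. The number of arrays limits the precision. Arrays of a group correlated at r of 0.96 to 0.99 over all genes.

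Some arrays stood apart within their groups, and the members moved with them. A list of markers was read as the mean deviation of its genes from their medians over the 33 arrays. SCI replicate 2 and SCI-ES 1 day replicate 1 had the highest satellite cell markers of all arrays (3 of 4 listed genes measured), at 1.55 and 2.12, and low Slc16a3, at 7.43 and 7.65. Fast-twitch markers (12 of 14 measured) were spread within Sham-SCI, at -0.06, 2.92 and 1.66 in replicates 1, 2 and 3. The 18 ablation arrays, from intact rats, read -2.11 to -0.09, so Sham-SCI replicate 1 was the nearest of its group to them. The 2.92 of Sham-SCI replicate 2 exceeded the 2.00 to 2.83 of SCI. Which Sham-SCI array was unusual for its group was not tested. Sham-GA 1 day replicate 1 had neutrophil markers (6 genes) at 2.07, inside the 1.32 to 2.59 of GA at 1 day. Sham-GA 3 days replicate 2 had fibroblast markers (7 genes) at 0.72 and macrophage markers (10 genes) at 1.05, inside the 0.30 to 0.88 and 0.90 to 1.30 of GA at 3 days. GA 3 days replicate 3 had the lowest muscle markers of all arrays, at -0.29, and the lowest mean deviation of the members, at -0.61. Values without 1 or more of these arrays are given beside results that they moved. Muscle markers (Acta1, Ckm, Mb, Des, Ttn) were measured on every array, within -0.29 to 0.08 of their medians.

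**Figure D1:**
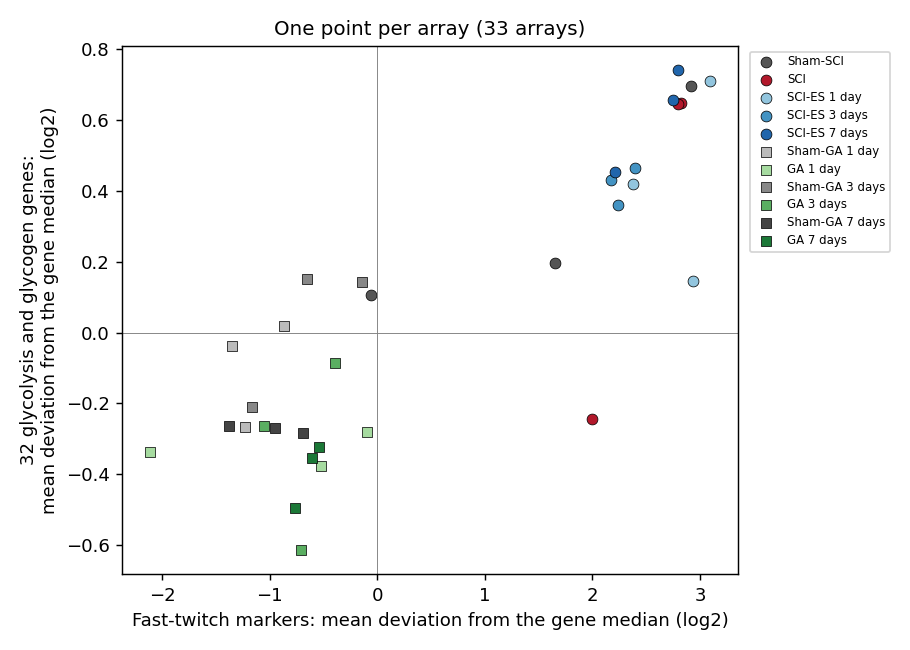
Each point is 1 of the 33 arrays, circles for the spinal cord experiment and squares for the ablation experiment. The x axis gives the mean deviation of 12 fast-twitch genes, and the y axis that of the 32 glycolysis and glycogen genes, in log2 units. Sham-SCI replicate 1 lies near the ablation arrays at -0.06 and 0.11, and SCI replicate 2 lies at 2.00 and -0.25, below the other SCI arrays.

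The plot of the 33 arrays sets the members beside the fast-twitch markers. The mean deviation of the members was 0.65, -0.25 and 0.64 in SCI, 0.11, 0.70 and 0.20 in Sham-SCI, and 0.36 to 0.46 in SCI-ES 3 days. It lay between -0.61 and 0.15 in the 18 ablation arrays. SCI replicate 2 thus had the lowest value of the spinal cord arrays, and the order of the Sham-SCI arrays was that of their fast-twitch markers. Of the 32 members, 25 had a higher mean in the 15 spinal cord arrays than in the 18 ablation arrays and 7 a lower mean. The largest differences were 2.44 in Gpd1, 2.30 in Slc16a3, 2.20 in Phkg1 and 2.19 in Pfkfb1. Pgam1 was lower by 1.00, at 10.64 to 11.59 against 11.64 to 12.47, with no overlap. It was the only member of the 32 whose arrays did not overlap between the experiments, which differ in surgery and age and cannot be told apart from any of these. These counts were not taken over all genes. Whether the members differed between the experiments more than other genes was thus not tested.

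SCI against Sham-SCI asks what the soleus looked like long after transection. Gbe1, the glycogen branching enzyme, and Ldhb, the lactate dehydrogenase subunit typical of slow and cardiac muscle, were the lowest in SCI among members whose groups did not overlap. Pfkfb3, which makes fructose 2,6-bisphosphate, the activator of phosphofructokinase, was the highest. Limma called 0 of the 32 changed, where 0.401% of 14456 genes were called. An unadjusted p under 0.05 was found for 5 members (15.6%), beside 14.6% of all genes. The methods' test across groups, unadjusted and with the same fold minimum, passed 2 members, Pfkfb3 and Gbe1, beside 2.55% of all genes, and 0 members after Benjamini-Hochberg adjustment. That test gives each gene a single p over all groups of the spinal cord experiment. Its passes in the other comparisons of this experiment reuse the same p with another fold, and do not test those comparisons separately. Groups did not overlap for 6 members (18.8%), beside 22.3% of all genes. These shares lay near those of all genes. The median difference of the members was 0.12, and that of all genes -0.02. With 1 array left out, the median of the members ran from -0.06 without SCI replicate 3 to 0.37 without SCI replicate 2.

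Gbe1 stood at 10.91, 10.70 and 10.69 in Sham-SCI and at 9.93, 9.69 and 9.97 in SCI. The SCI arrays were tight and lay well below every Sham-SCI array. The mean went from 10.77 ± 0.125 to 9.86 ± 0.152 (SD, n = 3), a log2 difference of -0.91 (1.88 fold, SE 0.227, limma adjusted p = 0.093).

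Ldhb stood at 12.79, 12.30 and 12.89 in Sham-SCI and at 11.73, 11.60 and 11.42 in SCI. All SCI arrays were below all Sham-SCI arrays, and the difference was -1.07 (SE 0.42, limma adjusted p = 0.26). In the fit of the SCI and Sham-SCI arrays alone, Ldhb and Gbe1 were both called, beside 1.07% of all genes. Ldha, the subunit typical of fast muscle, overlapped between the groups, at 0.39 (SE 0.315, limma adjusted p = 0.62). A second row of Ldha, dimmer than the row used, gave -0.82, so the direction of Ldha differed between its rows.

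Pfkfb3 stood at 8.15, 8.23 and 7.65 in Sham-SCI and at 9.84, 8.28 and 9.70 in SCI. SCI replicate 2 lay just above the highest Sham-SCI array, and the other SCI arrays lay far above. The difference was 1.26 (2.40 fold, SE 0.438, limma adjusted p = 0.20), and 1.76 without SCI replicate 2 and SCI-ES 1 day replicate 1 (adjusted p = 0.065). These arrays were left out after the data were seen. SCI replicate 2 was the lowest SCI array in Pfkfb3, so the latter p-value cannot be read at face value. The kinase isoforms Pfkfb1 and Pfkfb4 overlapped, at -0.23 (SE 0.792) and -0.20 (SE 0.194). Pfkfb1 read 10.89, 7.78 and 10.37 in SCI, so SCI replicate 2 set its sign: without the same arrays Pfkfb1 was 0.72.

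Hk2, the hexokinase of insulin-responsive tissue, and Ugp2, which makes the UDP-glucose from which glycogen is built, lay lower in SCI with no overlap. Hk2 read 9.88, 9.68 and 9.53 in Sham-SCI and 9.46, 8.26 and 9.20 in SCI (difference -0.72, SE 0.303, limma adjusted p = 0.29). Ugp2 read 11.89, 11.89 and 11.71, and then 11.48, 10.46 and 11.67 (-0.63, SE 0.303, limma adjusted p = 0.36). In each of them SCI replicate 2 was far the lowest, and without the arrays named above the differences were -0.36 and -0.26. Pfkl, the liver type phosphofructokinase, was the last member without overlap, at -0.33 (SE 0.169), while the muscle type Pfkm was at 0.20 (SE 0.318) and the platelet type Pfkp at 0.41 (SE 0.179).

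The lower part of the pathway runs from aldolase to pyruvate kinase. Aldoa, Tpi1, Pgk1, Pgam2, Eno3 and Pkm were at 0.06 to 0.28, Pgam1 at -0.26, Eno1 at -0.12 and Gapdh at -0.04, and all overlapped. Without SCI replicate 2 and SCI-ES 1 day replicate 1, the former 6 genes were at 0.32 (Eno3) to 0.66 (Pkm), so their small differences rested on SCI replicate 2. Gapdh lay near the top of the array's scale in every group, at 13.67 to 13.91. Whether this limited its differences was not tested. Of the glycogen genes, Gys1 (glycogen synthase) was at -0.13, Pygm (muscle phosphorylase) at 0.15, Pgm1 (phosphoglucomutase) at 0.45 and the phosphorylase kinase subunits Phkg1, Phka1 and Phkb at 0.30, -0.51 and 0.26, all with overlap. So did Gpd1 and Gpd2, the cytosolic and mitochondrial arms of the glycerol phosphate shuttle, at 0.52 and 0.53, as well as Gpi (glucose 6-phosphate isomerase) at 0.14, Hk1 at 0.11, Slc2a4 (GLUT4) at -0.19 and Slc16a3 (the lactate exporter MCT4) at 0.12. Without the same arrays Gpd1 was at 1.63, Slc16a3 at 1.37, Phkg1 at 0.80, Phka1 at -0.14, Pfkm at 0.52, Gpi at 0.43 and Ldha at 0.74, with a limma adjusted p of 0.24 or more in each. Gys1 and Slc2a4 turned to 0.09 and 0.05.

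Markers of fiber types and of other cell types also differed in their means in the same comparison. All 12 fast-twitch genes measured were higher in SCI (median 1.03) and all 15 slow-twitch genes lower (median -1.05). All 7 fibroblast genes (median 1.59) and all 10 macrophage genes (median 0.51) were higher. The deviation of the fast-twitch list was 2.00 to 2.83 in SCI and -0.06 to 2.92 in Sham-SCI, and that of the slow-twitch list -1.08 to -0.65 and -0.02 to 0.47. Their part in the member differences was not tested.

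**Figure D2:**
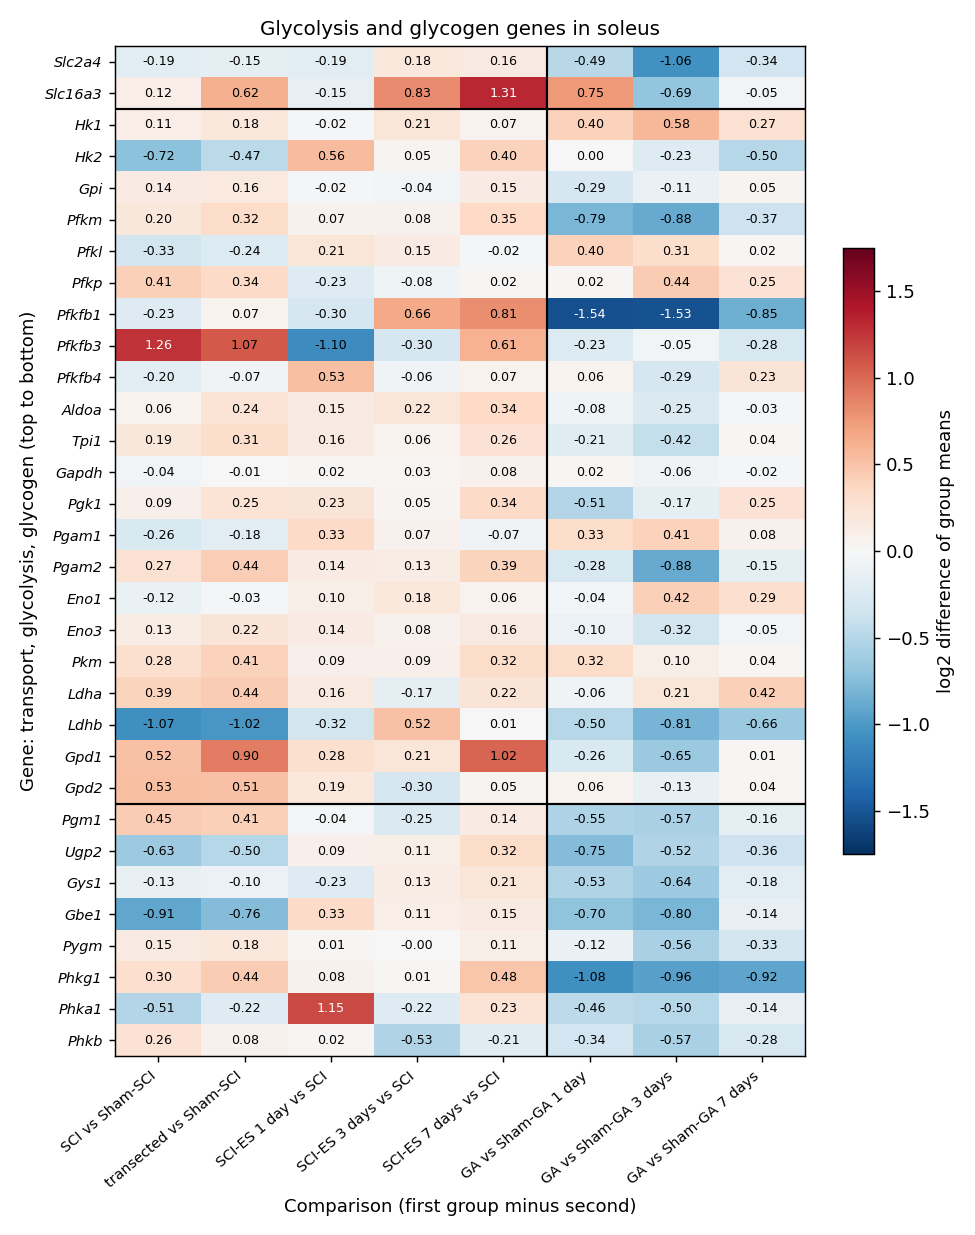
Rows are the 32 members, with transporters at the top, glycolysis in the middle and glycogen genes at the bottom, and columns are comparisons of group means. Colour and printed number give the log2 difference, red for higher in the first group. Gbe1 and Ldhb are blue in the first column, at -0.91 and -1.07, Pfkfb3 is red at 1.26, and Pfkfb1 is the bluest cell of the GA columns at -1.54.

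The mean of the 4 transected groups against Sham-SCI drew on all 15 arrays. Gbe1 fell by 0.76 on the log2 scale (1.69 fold, SE 0.179, limma adjusted p = 0.042) and was the only member called, 1 of 32, beside 1.68% of all genes. It read 9.84, 9.76 and 10.32 in SCI-ES 3 days and 9.84, 9.84 and 10.36 in SCI-ES 7 days. In SCI-ES 1 day it was more spread, at 9.69, 10.20 and 10.68. The highest of the 12 transected arrays, 10.68, lay just under the lowest Sham-SCI array, 10.69, so the groups touched with no overlap, which held for 1 member (Gbe1) and for 4.3% of all genes. The call was lost when any 1 of 10 of the 15 arrays was left out, with limma adjusted p from 0.022 to 0.17 over the 15, and kept only without an array of SCI-ES 1 day, SCI-ES 3 days replicate 3 or SCI-ES 7 days replicate 3. It was also lost in a single fit of all 33 arrays and in the methods' test after Benjamini-Hochberg adjustment. Unadjusted, that test passed Gbe1 and Pfkfb3, beside 2.3% of all genes. Without Sham-SCI replicate 1, Gbe1 was at -0.69. The median of the members was then 0.07, against 0.18 with all arrays and 0.37 without Sham-SCI replicate 2.

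Ldhb was at -1.02 (SE 0.332, limma adjusted p = 0.12) and Pfkfb3 at 1.07 (SE 0.346, limma adjusted p = 0.12). Without SCI replicate 2 and SCI-ES 1 day replicate 1, Pfkfb3 passed, at 1.28 (limma adjusted p = 0.027), beside Gbe1 at -0.68 (0.042) and 1.62% of all genes. These arrays were left out after the data were seen. Both read lowest of their groups in Pfkfb3, so leaving them out widens its difference. The p-values without them cannot be read at face value. Without SCI-ES 1 day replicate 2, Ldhb passed beside Gbe1 (Ldhb 0.011), as did 2.33% of all genes. An unadjusted p under 0.05 was found for 5 members (15.6%), beside 18.4% of all genes. Of 58 further genes of the pathway, listed apart from the members, 45 were measured and 2 were called. Slc16a7, a monocarboxylate transporter, fell by 1.91 (limma adjusted p = 0.012) and Esrrg, a nuclear receptor of oxidative muscle, fell by 1.46 (limma adjusted p = 0.020). Fast-twitch markers were higher in 11 of 12 genes here, and slow-twitch markers lower in 15 of 15, 2 of them called.

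**Figure D3:**
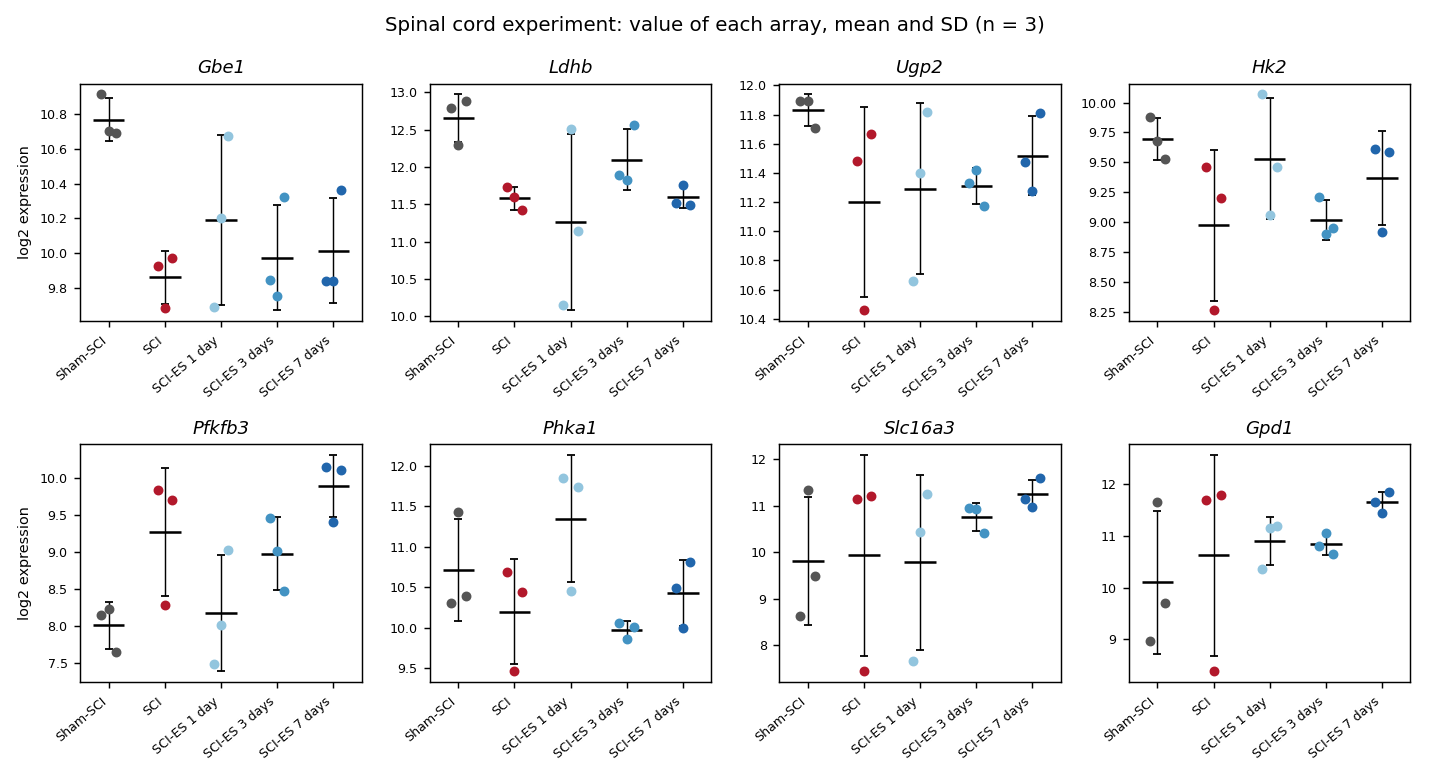
Log2 expression of 8 members on each of the 15 arrays of the spinal cord experiment, with a line at the mean of each group and bars of 1 SD (n = 3). Gbe1 and Ldhb are highest in Sham-SCI, Pfkfb3 is low in Sham-SCI and SCI-ES 1 day and highest in SCI-ES 7 days, and in Slc16a3 a single array of SCI and of SCI-ES 1 day lies near 7.43 and 7.65.

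Stimulation was compared with SCI at each day. These comparisons share the 3 SCI arrays, SCI replicate 2 among them. SCI animals carried no stimulator, and the groups of 1 and 3 days were taken sooner after tenotomy than the 21 days of SCI. Implant and time since surgery cannot be told apart from stimulation here. At 1 day, Phka1, the regulatory alpha subunit of phosphorylase kinase in muscle, was the highest member and Pfkfb3 the lowest. Limma called 0 members and 0% of all genes, with an unadjusted p under 0.05 in 3 members (9.38%) and 7.28% of all genes. The methods' test, unadjusted, passed Pfkfb3 alone, beside 0.809% of all genes. Without SCI replicate 2 and SCI-ES 1 day replicate 1, 8 of 32 members were above 0 (median -0.07), where 22 were with all arrays (median 0.09). No member had groups without overlap, where 11.4% of all genes did.

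Phka1 read 10.69, 9.46 and 10.44 in SCI and 11.85, 10.45 and 11.74 in SCI-ES 1 day. Each group held 1 low array, and SCI-ES 1 day replicate 2 lay among the SCI arrays. The difference was 1.15 (2.22 fold, SE 0.406, limma adjusted p = 0.63), and 0.53 without SCI replicate 2 and SCI-ES 1 day replicate 1. By 3 and 7 days Phka1 was back at 9.86 to 10.06 and 9.99 to 10.81. Pfkfb3 read 7.48, 8.01 and 9.03 at 1 day (-1.10, SE 0.438, limma adjusted p = 0.68), of which the lower 2 lay within the range of the Sham-SCI arrays or below it. Satellite cell markers (median 0.87, 2 of 3 higher), neutrophil markers (0.59, 6 of 6) and erythroid markers (1.5, 3 of 3) were higher at 1 day, and fibroblast markers (-0.57, 7 of 7) and endothelial markers (-0.44, 4 of 4) lower. The satellite cell list deviated by 0.44 to 2.12 in SCI-ES 1 day and -0.15 to 1.55 in SCI. The erythroid list deviated by 0.34 to 1.74 and -1.46 to 0.93. Of the lists, only that of neutrophils had arrays that did not overlap between these groups (-0.01 to 1.06 and -0.30 to -0.06). Their part in these differences was not tested.

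At 3 days limma called 0 members and 0% of all genes, with an unadjusted p under 0.05 in 0 members and 3.07% of all genes, and the methods' test, unadjusted, passed 0, beside 0.291% of all genes. Groups did not overlap for 3 members, beside 9.12% of all genes. Ldhb read 11.90, 11.82 and 12.57 against 11.73, 11.60 and 11.42 in SCI (0.52, SE 0.42), and Pfkl lay higher by 0.15 (SE 0.169). Phkb, the beta subunit of phosphorylase kinase, read 10.24, 10.15 and 10.39 against 11.05, 10.57 and 10.75 (-0.53, SE 0.278). Above 0 were 22 of 32 members (median 0.07), and 6 of 32 (median -0.24) without SCI replicate 2 and SCI-ES 1 day replicate 1. Slow-twitch markers were higher in 14 of 15 genes (median 0.34).

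At 7 days 29 of 32 members were above 0 (median 0.19), where 51.9% of all genes were. Without SCI replicate 2 and SCI-ES 1 day replicate 1, 15 of 32 were above 0 and the median was -0.01, so the count rested on SCI replicate 2. With limma 0 members and 0% of all genes were called, the unadjusted p was under 0.05 in 0 members and 2.84% of all genes, and the methods' test, unadjusted, passed Pfkfb3 alone, beside 0.18% of all genes. Groups did not overlap for 0 members and for 7.57% of all genes. Slc16a3 was the highest, at 11.15, 10.98 and 11.59 against 11.14, 7.43 and 11.21 in SCI, so the difference of 1.31 (SE 1.02) rested on SCI replicate 2 and was 0.07 without it and SCI-ES 1 day replicate 1. Gpd1 likewise went from 1.02 (SE 0.773) to -0.09, and Pfkfb1 from 0.81 (SE 0.792) to -0.14.

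Between 1 and 7 days of stimulation Pfkfb3 differed most. Time since surgery also differed between these groups and cannot be told apart from days of stimulation. It read 7.48, 8.01 and 9.03 at 1 day and 10.15, 9.40 and 10.11 at 7 days. Every array at 7 days lay above every array at 1 day, by 1.71 in the mean (3.28 fold, SE 0.438, limma adjusted p = 0.24). At 3 days the arrays lay between, at 9.45, 9.01 and 8.47. Without 1 of the 15 arrays the difference ranged from 1.37 to 2.14. Calls by limma numbered 0 among members and 0% of all genes. The unadjusted p was under 0.05 in 3 members (9.38%) and 12.1% of all genes, and the methods' test, unadjusted, passed Pfkfb3 alone, beside 1.26% of all genes. Gapdh (0.06) and Gpd1 (0.74) also had groups with no overlap, 3 members in all, beside 15.3% of all genes.

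Ablation was compared with Sham-GA at 1, 3 and 7 days. Members were lower more often than higher at 1 and 3 days, with Pfkfb1, the muscle and liver isoform of the kinase and phosphatase of fructose 2,6-bisphosphate, the lowest on both days. The lowest after it were Phkg1, the catalytic subunit of phosphorylase kinase in muscle, and Pfkm, the muscle phosphofructokinase, at 1 day, and Slc2a4 and Phkg1 at 3 days. At 1 day 22 of 32 members were below 0 (median -0.22), beside 51.8% of all genes (median -0.01). Limma called 0 members and 0.0554% of all genes. The unadjusted p was under 0.05 in 6 members (18.8%) and 13.7% of all genes, and the methods' test, unadjusted, passed 5, beside 3.7% of all genes. For ablation that test took the smaller p of operation and of its interaction with day, over all ablation arrays. The same p served each day and the mean effect, so a pass is not specific to a day. Groups did not overlap for 5 members (Gpi, Pfkm, Pgk1, Ugp2 and Gbe1, all lower in GA), which was 15.6% beside 16.6% of all genes.

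Pfkm read 10.24, 11.22 and 11.26 in Sham-GA and 10.09, 10.20 and 10.06 in GA at 1 day. Sham-GA replicate 1 lay just above the GA arrays and the other Sham-GA arrays a full unit higher. The difference was -0.79 (1.73 fold, SE 0.334, limma adjusted p = 0.32). Ugp2 read 11.37, 12.06 and 11.34, and then 10.89, 10.80 and 10.82, with all GA arrays tight and below (-0.75, SE 0.33, limma adjusted p = 0.34).

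Pfkfb1 read 6.81, 8.81 and 8.59 in Sham-GA and 6.48, 6.82 and 6.30 in GA at 1 day. Sham-GA replicate 1 lay among the GA arrays. The difference was -1.54 (2.90 fold, SE 0.573, limma adjusted p = 0.26). Pgk1, which makes the first ATP of the pathway, was at -0.51 (SE 0.143, limma adjusted p = 0.16), Gpi at -0.29 (SE 0.107) and Gbe1 at -0.70 (SE 0.371). Slc16a3 lay higher, at 0.75 (SE 0.41, limma adjusted p = 0.44). Without Sham-GA 1 day replicate 1 and Sham-GA 3 days replicate 2, Pfkfb1 (-2.17, limma adjusted p = 0.021), Pfkm (-1.13, 0.034) and Pgm1 (-0.92, 0.032) passed at 1 day, beside 4.8% of all genes. These arrays were left out after the data were seen, for their neutrophil, macrophage and fibroblast markers. In those markers they lay inside the range of GA arrays, so leaving them out can widen the differences. The p-values without them cannot be read at face value. In the same comparison neutrophil markers were higher in 6 of 6 genes (median 1.26) and macrophage markers in 8 of 10 (0.58), and their part in the member differences was not tested.

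At 3 days 25 of 32 members were below 0 and 7 above, with a median of -0.37, beside 55.2% of all genes below 0 (median -0.03). Limma called 0 members and 0% of all genes. The unadjusted p was under 0.05 in 9 members (28.1%) and 16.5% of all genes, and the methods' test, unadjusted, passed 7, beside 4.69% of all genes. Groups did not overlap for Gpi, Tpi1, Gapdh and Slc16a3, 4 members, beside 13.5% of all genes.

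Slc16a3 read 8.49, 8.28 and 8.63 in Sham-GA and 7.69, 7.56 and 8.09 in GA at 3 days (-0.69, SE 0.41, limma adjusted p = 0.38). Tpi1, triose phosphate isomerase, read 12.15, 11.64 and 11.96, and then 11.40, 11.62 and 11.47 (-0.42, SE 0.15, limma adjusted p = 0.29). In both, the groups lay apart by a small gap. Slc2a4 read 11.79, 11.06 and 11.77, and then 10.56, 11.17 and 9.72, so that GA replicate 2 lay among the Sham-GA arrays (-1.06, SE 0.38, limma adjusted p = 0.29).

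Isoforms of several shared steps, though not of all, stood on opposite sides of 0 at 3 days. Hk1 was at 0.58 (SE 0.294) and Hk2 at -0.23 (SE 0.283). Pfkl and Pfkp were at 0.31 (SE 0.243) and 0.44 (SE 0.262), and Pfkm at -0.88 (SE 0.334). Pgam1 was at 0.41 (SE 0.211), Pgam2 at -0.88 (SE 0.38), Eno1 at 0.42 (SE 0.327) and Eno3 at -0.32 (SE 0.193). Ldha was at 0.21 (SE 0.161) and Ldhb at -0.81 (SE 0.361). None of these passed with all arrays (limma adjusted p from 0.29 to 0.66), and the difference between isoforms was not tested. A second row of Pgam1 gave -0.12 and a second row of Ldha 1.42, whereas the 3 rows of Eno1 gave 0.42 to 0.46. Gpd1 and Gpd2 were both below 0, at -0.65 and -0.13. So were Pfkfb1, Pfkfb3 and Pfkfb4, at -1.53, -0.05 and -0.29.

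Single arrays carried much of this. Pgam2 read 12.15, 10.87 and 11.97 in Sham-GA at 3 days and 10.80, 11.28 and 10.29 in GA, and Pgam1 read 11.65, 12.32 and 11.64, and then 12.33, 12.08 and 12.42. Sham-GA replicate 2 lay toward the GA arrays in both genes, and GA replicate 2 toward the Sham-GA arrays. Without Sham-GA 3 days replicate 2 alone, Pfkm, Pfkfb1 and Pgam2 were called, beside 8.9% of all genes. Without Sham-GA 1 day replicate 1 as well, 12 members were called, beside 13.7% of all genes: Hk1 (0.85), Pfkp (0.71) and Pgam1 (0.63) higher, and Pfkm, Pfkfb1, Pgam2, Gpd1, Phkb, Gys1, Pgm1, Gbe1 and Slc2a4 lower, from -0.78 in Phkb to -2.06 in Pfkfb1. Leaving out a Sham-GA array that lay toward GA widened these differences. Without GA 3 days replicate 3 instead, Pfkfb1 narrowed to -0.89, Pfkm to -0.51, Pgam2 to -0.62 and Slc2a4 to -0.67. The median of the members was then -0.20. Fibroblast markers were higher in GA in 7 of 7 genes (median 1.28), macrophage markers in 10 of 10 (0.86), and muscle markers lower in 5 of 5 (-0.18). Slow-twitch markers were lower in 12 of 15 genes (-0.37) and fast-twitch markers in 7 of 12 (-0.07). The fibroblast list deviated by 0.30 to 0.88 in GA and -1.17 to 0.72 in Sham-GA at 3 days, and the macrophage list by 0.90 to 1.30 and -0.59 to 1.05. The part of these lists in the member differences was not tested.

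**Figure D4:**
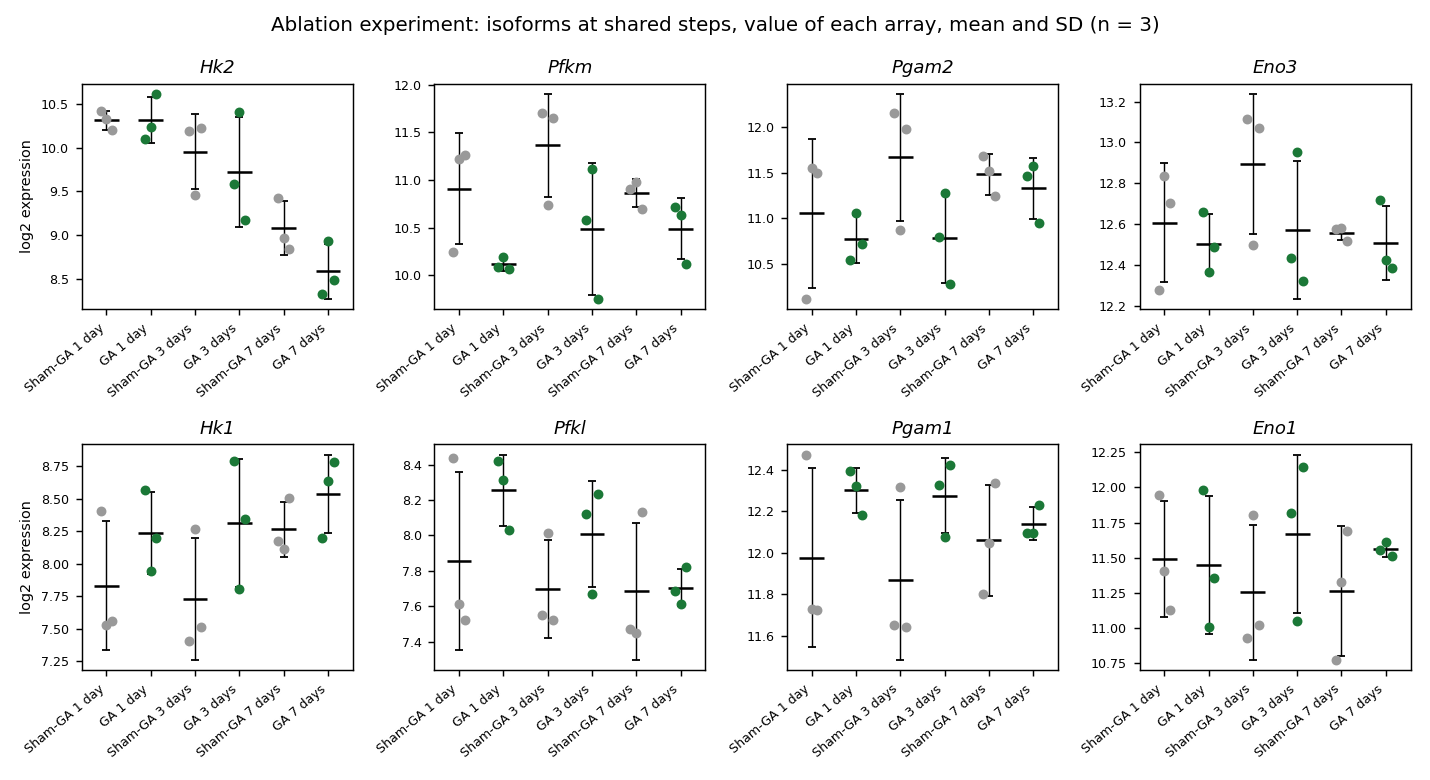
Log2 expression on each array of the ablation experiment, with the mean and 1 SD (n = 3), for muscle isoforms (top: Hk2, Pfkm, Pgam2, Eno3) and their counterparts at the same steps (bottom: Hk1, Pfkl, Pgam1, Eno1). At 3 days GA lies below Sham-GA in the means of the top row (-0.23 to -0.88) and above it in the bottom row (0.31 to 0.58), with overlapping arrays in all 8 genes.

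At 7 days 19 of 32 members were below 0, with a median of -0.05. Limma called 0 members and 0% of all genes. The unadjusted p was under 0.05 in 1 member and 2.63% of all genes, and the methods' test, unadjusted, passed 3 (Pfkfb1, Ldhb and Phkg1), beside 1.09% of all genes. Groups did not overlap for 5 members (15.6%), beside 11.2% of all genes.

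Ldha read 11.82, 12.05 and 12.04 in Sham-GA and 12.27, 12.57 and 12.33 in GA at 7 days, higher on every GA array (0.42, SE 0.161). Ldhb, its partner subunit, read 12.46, 12.54 and 12.22, and then 12.01, 11.75 and 11.50, lower on every GA array (-0.66, SE 0.361). Both had a limma adjusted p of 1.00.

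Phkg1 read 7.91, 7.39 and 7.18 in Sham-GA and 7.03, 6.86 and 5.82 in GA at 7 days (-0.92, SE 0.54). Pfkfb1 read 8.51, 7.85 and 7.86, and then 7.21, 7.57 and 6.88 (-0.85, SE 0.573). In both, every GA array lay below every Sham-GA array, and the same held for Ugp2 (-0.36, SE 0.33). In the marker lists the medians at 7 days were 0.10 for macrophages, 0.06 for fibroblasts, 0.29 for fast-twitch and -0.06 for slow-twitch genes, and 0.40 for adipocytes. Their part in the member differences was not tested.

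The mean of the GA effects over the 3 days used all 18 arrays. With limma 0 members and 0% of all genes were called, and the lowest adjusted p of a member was 0.17 (Pfkfb1 and Pfkm). An unadjusted p under 0.05 was found for 14 members (43.8%), beside 19.3% of all genes, and the methods' test, unadjusted, passed 5, beside 1.99% of all genes. Below 0 were 23 of 32 members, beside 54.2% of all genes. Pfkfb1 was at -1.31 (2.47 fold, SE 0.331), Phkg1 at -0.99 (SE 0.312), Pfkm at -0.68 (SE 0.193), Ldhb at -0.66 (SE 0.208) and Slc2a4 at -0.63 (SE 0.22). Of the glycogen genes, Ugp2 and Gbe1 were each at -0.55, Gys1 at -0.45, Pgm1 at -0.42, Phkb at -0.39, Phka1 at -0.36 and Pygm at -0.34, so all 8 glycogen genes with Phkg1 lay below 0. Hk1 was the highest, at 0.42 (SE 0.17). Without the same pair of Sham-GA arrays 10 members were called, beside 7.7% of all genes, with Pfkfb1 at -1.69 (limma adjusted p = 0.0021), Pfkm at -0.89 (0.0027) and Hk1 at 0.60 (0.0083). The pair was picked for markers like those of GA arrays, so these p-values cannot be read at face value either.

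**Figure D5:**
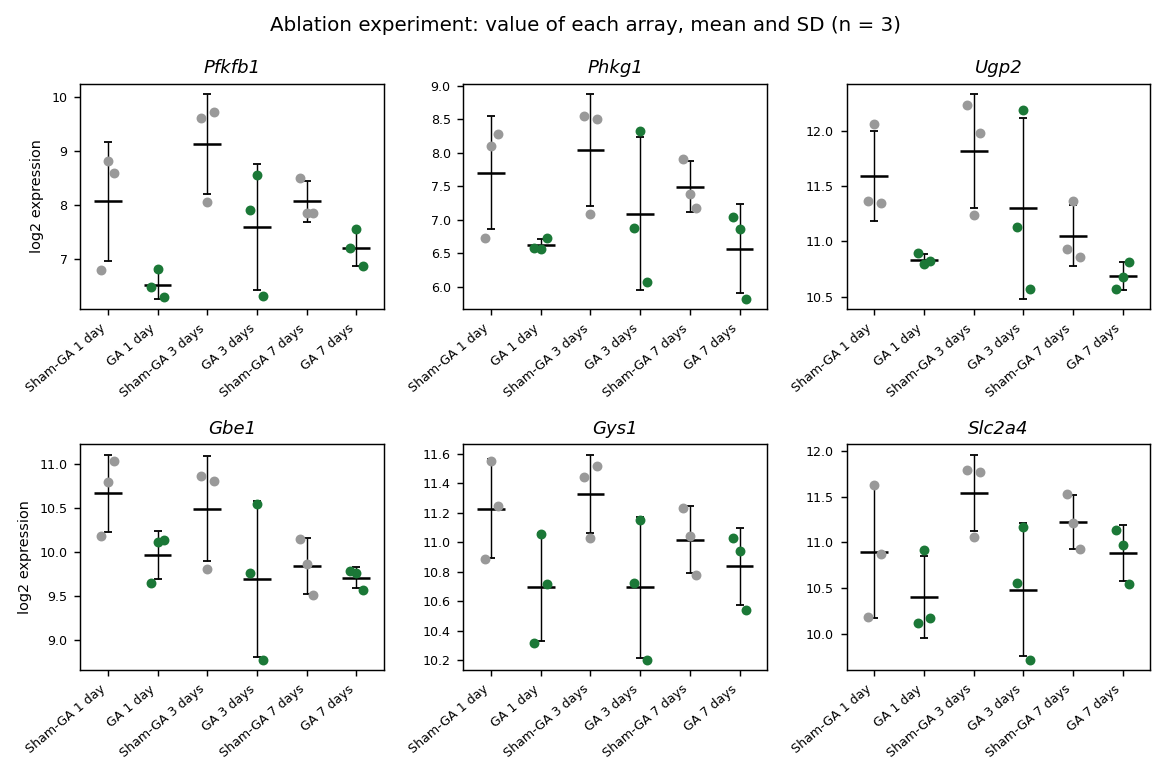
Log2 expression on each array of the ablation experiment, with the mean and 1 SD (n = 3), for Pfkfb1, Phkg1, Ugp2, Gbe1, Gys1 and Slc2a4. The mean of GA lies below that of Sham-GA in all 6 genes at each of the 3 days, while Sham-GA 1 day replicate 1 and Sham-GA 3 days replicate 2 lie near GA arrays in Pfkfb1 (6.81 and 8.06) and Phkg1 (6.73 and 7.08).

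The GA effect at 7 days minus that at 1 day was called for 0 members and 0% of all genes, with an unadjusted p under 0.05 in 2 members (6.25%) and 8.26% of all genes. The methods' test, unadjusted, passed Pgk1 alone, beside 2.14% of all genes. Pgk1 went from -0.51 at 1 day to 0.25 at 7 days, a difference of 0.76 (SE 0.202, limma adjusted p = 0.39).

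The ES effect minus the GA effect at the same day was fitted over all 33 arrays, and the experiments cannot be told apart from it. At 1 day limma called 0 members and 0.0554% of all genes, with an unadjusted p under 0.05 in 3 members and 13% of all genes. Phka1 had the largest value, 1.61 (SE 0.52, limma adjusted p = 0.17), made of 1.15 after stimulation and -0.46 after ablation. At 3 days the counts were 0 members, 0% of all genes, and 4 members beside 9.47%, and at 7 days 0 members, 0%, and 1 member beside 3.14%. Pfkfb1 had the largest values at those days, 2.19 (SE 1.03) and 1.66 (SE 1.03), with a limma adjusted p of 0.52 and 1.00. The medians of the members were 0.29, 0.30 and 0.30 at 1, 3 and 7 days, and 0.06, 0.07 and 0.03 without SCI replicate 2.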

How the data were processed

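Soleus RNA with integrity numbers above 8 was hybridised to 33 arrays. The authors made the deposited log2 expression values by RMA with the oligo package, whose version is not given in the sources used here. The table held 29214 rows, of which 15310 carried 1 gene symbol (14506 genes), 323 several and 13581 none. For 527 genes with several rows the row with the highest mean was used. Gapdh had 16 rows. The array is called an exon array by the labels, while its annotation is per transcript cluster. Values ran from 2.10 to 14.26, and 0 columns belonged to other samples. Arrays have no depth, so precision rests on 3 animals a group.

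Group means were fitted by lmFit and eBayes of limma 3.58.1 in R 4.3.3, separately for the 15 and 18 arrays, and over all 33 for ES minus GA. Genes with a mean of at least 3 were tested, and a change was called at a Benjamini-Hochberg adjusted p under 0.05 over all of them and at least 1.5 fold. With 3 arrays against 3, an exact permutation test cannot go below 0.1 (two-sided). The methods' test across groups follows the analysis of variance of the study's methods, with the same fold minimum. It leaves out the study's filter on variance, so its passes are not those of the study. For the spinal cord experiment it gave a single p per gene over all groups, used in every comparison. For ablation, each day and the mean effect used the smaller p of operation and of its interaction with day. The study's methods do not state this choice, which can pass more genes than either p alone. The effect at 7 days minus 1 day used the interaction alone. A pass is thus no test of a single comparison. The fits were tested on simulated data. Python 3.11.15 was used for the promoter search (pandas 2.3.3) and for plots (matplotlib 3.10.9, numpy 2.4.6).

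The members, the related genes, the marker lists and the rule for naming were chosen with earlier results of these data known. Members shown on every array are those called, up to 2 in each direction with the largest difference among those whose groups did not overlap, and isoforms of shared steps. Hk2 in SCI, Phka1, Slc16a3 and Gpd1 after ES, Pfkfb3 at 7 days of ES, Pfkfb1 and Slc2a4 after GA and the further arrays given were chosen after their values were seen. Alternatives covered the filter, rows, normalization, prior, fold minimum, arrays in the fit, the methods' test, a replicate block and each array left out.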

Additional observations from a re-analysis of the deposited data

How the results depend on the processing

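Most counts of members called were 0, which leaves them little room to move. With the arrays of the contrast alone, SCI against Sham-SCI gave 2 members. The methods' test, unadjusted, gave 2 for SCI and 2 for all transected groups against Sham-SCI, 1 each for ES at 1 day, ES at 7 days and 7 against 1 day of ES, 5, 7 and 3 for GA at 1, 3 and 7 days, 5 for the mean GA effect, and 1 for the GA effect at 7 days minus 1 day. After Benjamini-Hochberg adjustment it gave 0 for the transected groups. Leaving out SCI replicate 2 and SCI-ES 1 day replicate 1, a setting added after seeing the data, gave 2 for the transected groups. In Pfkfb3 both arrays read lowest of their groups, so leaving them out widens its difference. Leaving out Sham-GA 1 day replicate 1 and Sham-GA 3 days replicate 2, also added, gave 3 for GA at 1 day, 12 at 3 days and 10 for the mean GA effect. That choice of arrays favours larger differences. The cause of these differences was not tested.

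With each array left out in turn, the count ranged from 0 to 2 for the transected groups, from 0 to 1 for SCI against Sham-SCI (1 without SCI-ES 1 day replicate 1), from 0 to 3 for GA at 3 days, from 0 to 6 for the mean GA effect (4 without Sham-GA 1 day replicate 1, 6 without Sham-GA 3 days replicate 2) and from 0 to 1 for ES minus GA at 1 day (Phka1, without SCI-ES 1 day replicate 2). It stayed at 0 elsewhere. Of about 14450 genes tested, the calls moved too: 21 to 434 for the transected groups and 5 to 121 for SCI against Sham-SCI. They were 0 to 1286 for GA at 3 days, 0 to 493 for the mean GA effect and 1 to 102 for ES minus GA at 1 day. The median of the members changed sign with 1 array left out for SCI against Sham-SCI (from -0.06 to 0.37 over the arrays), ES at 1 day (-0.20 to 0.25), 3 days (-0.24 to 0.19) and 7 days (-0.01 to 0.35), and GA at 7 days (-0.13 to 0.01).

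Replicate numbers did not pair the samples: deviations of arrays with the same number correlated from -0.41 to 0.67 in the spinal cord experiment and from -0.72 to 0.61 in the ablation experiment, and 6 of 15 and 5 of 18 arrays correlated best with their own number. The replicate block gave 1 member (Gbe1) for the transected groups and 0 in every other comparison, as without it. Dim genes limit little here, since the members lay well above the filter, but Gapdh lies near the top of the scale.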
